A study of Homo sapiens with 10 samples.

Results

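The multidomain BCL2 family was followed in PC-3, a human cell line grown from a prostate cancer that no longer needs androgen. Its 8 members here are the 5 survival genes BCL2, BCL2L1, BCL2L2, MCL1 and BCL2A1 and the 3 pore-forming genes BAX, BAK1 and BOK. They were taken by gene name from the 28090 genes named on the array, of which 19717, all 8 members included, were measured well enough to be tested. RNA was measured on 10 single-color Agilent arrays, which make 5 groups of 2 biological replicates. One group was left untreated (0 h), and the rest spent 24 h with the solvent DMSO, with 60 µM luteolin (a plant flavonoid), with 60 µM gefitinib (an inhibitor of the EGFR kinase) or with both at 60 µM each. Both drugs had been dissolved in DMSO. The study took its arrays at 24 h to look for changes ahead of drug-induced cell death. Each drug group is set against DMSO below, because DMSO shares the solvent and the time.

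For the 6 drug-treated arrays, the treatment in the scanner's file name is not the one in the sample label. The arrays labelled luteolin have gefitinib in the file name, those labelled gefitinib have both drugs, and those labelled with both have luteolin. Groups are named by their labels throughout, so each drug named below means the arrays with that label. With the file names in place of the labels, the values against DMSO keep their size and move to another drug, and the comparisons between drugs change as given in the closing section.

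The BCL2 family decides whether the outer membrane of the mitochondrion stays closed. BAX and BAK1, and in some settings BOK, assemble into pores through which cytochrome c leaves to start the caspase cascade. BCL2, BCL-XL (encoded by BCL2L1), BCL-W (BCL2L2), MCL1 and A1 (BCL2A1) hold the pore-formers in check. The BH3-only proteins bind the survival proteins or the pore-formers and tip the balance towards death. The balance is set to a large part at the protein level, which arrays do not measure.

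The sequences just before the transcription starts of BAK1 and BCL2L1 are shown because these 2 members had the widest ranges of group means. They were read from RefSeq promoter windows on GRCh38, which held 6 of the 8 members and a pair of starts for BCL2L1. Each line gives the 250 bases before a start, 5′ to 3′ on the strand of the gene (the minus strand for both genes), and capitals mark the matches to the motifs searched. BAK1 lies at chr6:33580277-33580526, the upstream BCL2L1 window at chr20:31723964-31724213 and the downstream one at chr20:31722869-31723118.
BAK1: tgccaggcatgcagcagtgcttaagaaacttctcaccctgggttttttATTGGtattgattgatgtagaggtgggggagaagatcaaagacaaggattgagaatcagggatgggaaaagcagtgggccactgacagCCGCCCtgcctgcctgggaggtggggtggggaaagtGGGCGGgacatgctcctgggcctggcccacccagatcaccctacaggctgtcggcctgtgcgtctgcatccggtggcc
BCL2L1 upstream start: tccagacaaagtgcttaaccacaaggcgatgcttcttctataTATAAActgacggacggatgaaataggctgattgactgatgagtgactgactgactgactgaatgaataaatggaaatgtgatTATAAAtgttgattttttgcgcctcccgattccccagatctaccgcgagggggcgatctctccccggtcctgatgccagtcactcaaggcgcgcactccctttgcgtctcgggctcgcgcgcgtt
BCL2L1 downstream start: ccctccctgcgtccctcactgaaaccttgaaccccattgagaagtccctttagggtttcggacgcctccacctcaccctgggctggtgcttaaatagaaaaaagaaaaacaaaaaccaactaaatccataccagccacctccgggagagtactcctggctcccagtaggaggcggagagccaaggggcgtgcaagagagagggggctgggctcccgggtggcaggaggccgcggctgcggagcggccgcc
The 6 motifs were searched on either strand. The GC box was taken as GGGCGG. The TATA box was taken as TATAAA. The CCAAT box was taken by the letters of its name. The cyclic AMP response element was taken as TGACGTCA. The element bound by CEBP and ATF factors together was taken as TGATGNAA. The site of the E2F cell cycle factors was taken as TTTCGCGC. The BAK1 window held 2 GC boxes, which begin 114 and 78 bases before the start, and 1 CCAAT box, which begins 202 bases before it. Of 35116 windows of the same length, 42.6% held a GC box and 32% a CCAAT box. The upstream BCL2L1 window held TATAAA at 208 and 125 bases before its start, letters that 3763 of all windows held, and the downstream window matched none of the 6 motifs. GC content was 58% for BAK1, 50% and 60.4% for the BCL2L1 windows and 58% at the median of all windows. No match overlapped another, and a match is a description of letters only. The cyclic AMP, CEBP-ATF and E2F motifs, held by 1.65%, 3.14% and 0.439% of all windows, matched none of these 3 windows.

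The share of probes well above background ranged from 63.4% to 70.4% over the arrays, and none was saturated. The 75th percentile of the signal, to which each array is scaled, differed between groups. It was 1402 and 1177 at 0 h, 1350 and 1283 with DMSO, and 1173 and 1041 with luteolin. Arrays of gefitinib were dimmer, at 651 and 628, as were those of both, at 865 and 540. What this does to calls near 2-fold was not tested beyond the other scalings. The 10 arrays lay on 3 slides, each read in its own scan, and 2 arrays per group limit the precision. Genes of epithelial cells (KRT8, KRT18, KRT19, EPCAM and CDH1) were well above background on all 10 arrays, while PTPRC, a marker of white blood cells, was so on none. KLK3, an androgen-driven gene, was bright with 1 of 3 probes on all arrays and not above background with the other 2. Among other markers, TMPRSS2, PECAM1 and 1 of 2 probes of CD3E were above background on 10 arrays, COL1A1 and 1 of 3 probes of KLK2 on 9, and 1 of 2 probes of COL1A2 on 2 arrays of different groups.

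All 8 members were expressed. Of their 16 probes, 14 were well above background on every array, and each gene was counted by its brightest probe. A signal is given below as log2 relative to the array's 75th percentile, so 0 is a probe as bright as that percentile, and a call means an adjusted p under 0.05 and at least a 2-fold change. All adjusted p-values are from limma with Benjamini-Hochberg adjustment over the 28774 probes tested, except where probes of a gene are set against each other or averaged, which were adjusted over all probe pairs or all genes. Because RNA came from whole cultures, fewer cells with a transcript and less of it per cell cannot be told apart.

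Luteolin moved 0 of the 8 members past the call in limma, where 13.4% of all genes tested were called. At an unadjusted p under 0.05 there were 3 (BCL2L1, BCL2L2 and BCL2A1), where 7578 of the 19717 genes had such a p, and the methods' t-test called 0 members. With gefitinib 3 of 8 were called (BCL2 and BAX higher, BAK1 lower), beside 29.9% of all genes. With both drugs 1 of 8 was called (BCL2 higher), beside 19.8% of all genes. Between DMSO at 24 h and 0 h limma called 0 of 8 members, beside 0.0355% of all genes, and 0 had an unadjusted p under 0.05. The methods' t-test again could call none, since no member changed 2-fold. The median log2 change of the members against DMSO was 0.16 with luteolin, 0.20 with gefitinib and 0.47 with both, and that of all genes was 0.08, 0.22 and 0.16. For the survival genes alone the medians were 0.19, 0.36 and 0.74, and for the pore-formers -0.10, 0.03 and -0.67. With 8 members, these counts lie close to the shares of all genes, so they are read below gene by gene.

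**Figure D1:**
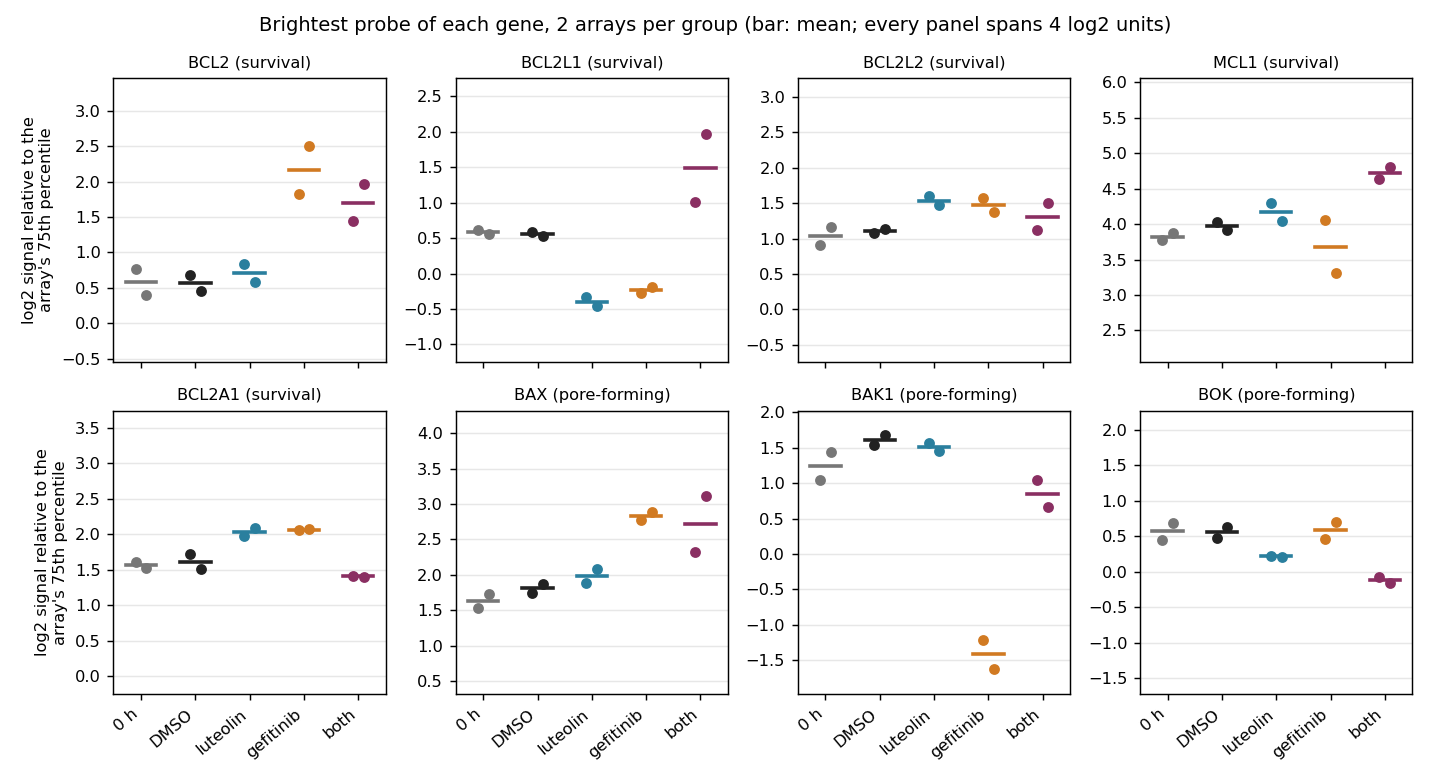
Signal of the brightest probe of each member, as log2 relative to the array's 75th percentile, on the 2 arrays (points) of each group with their mean (bar). BAK1 falls to -1.21 and -1.62 on the arrays labelled gefitinib, and BCL2L1 is below DMSO with either drug and above it with both.

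**Figure D2:**
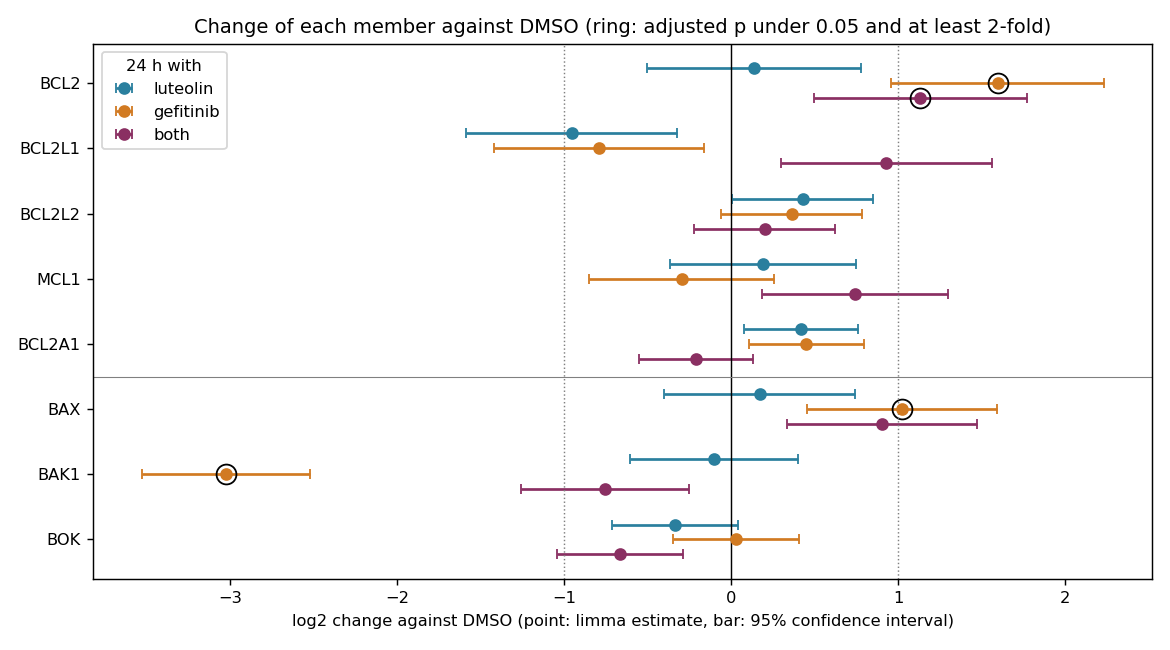
Log2 change of each member against DMSO with its 95% confidence interval, from limma, for luteolin, gefitinib and both drugs. Rings mark the 4 calls, which are BCL2 with gefitinib and with both, BAX with gefitinib and BAK1 with gefitinib.

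BCL2, the founding survival gene of the family, was higher by its brighter probe (named for M13995) on the arrays labelled gefitinib or both drugs. Its brighter probe (chr18:59136115-59136150 on hg18, minus strand) gave 0.77 and 0.41 at 0 h, 0.68 and 0.46 with DMSO, 0.84 and 0.58 with luteolin, 1.82 and 2.51 with gefitinib, and 1.44 and 1.97 with both. All 4 arrays with gefitinib in the label lay above all 6 others. The log2 change against DMSO was 1.60 ± 0.28 (SE, n = 2 per group, adjusted p = 0.00272 by limma) with gefitinib, a 3.02-fold rise, and 1.13 ± 0.28 (adjusted p = 0.0149 by limma) with both. With luteolin the change of 0.14 had an interval of -0.50 to 0.78. On the slide that held both DMSO and gefitinib the gefitinib difference was 1.15, and on the 2 slides that held DMSO and both drugs the differences were 0.76 and 1.51. With the slide as a block the changes were 1.35 with gefitinib and 1.13 with both, still called. The rise with both drugs was not called without DMSO replicate 1 (adjusted p = 0.0545 by limma), DMSO replicate 2 (0.0888) or replicate 2 of both drugs (0.0833).

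The other BCL2 probe, named for NM_000633, lies 194412 bases from the first. It was dim, at -4.36 and -4.46 at 0 h and -4.86 and -5.04 with DMSO, and not well above background on either array of luteolin (-5.92 and -6.37) or of gefitinib (-4.91 and -5.33) or on 1 array of both (-4.76 and -5.43). It was at least 1.499-fold lower with luteolin than with DMSO (fitted log2 change -1.19, adjusted p = 0.0137 by limma). With gefitinib its fitted change of -0.17 had an interval of -0.78 to 0.44 and was not called (adjusted p = 0.611 by limma), so it has no clear direction. Relative to the bright probe it changed by -1.77 ± 0.44 with gefitinib (SE, adjusted p = 0.0312 by limma), where 10.9% of all probe pairs were called. This difference was chosen after the values were seen, and its call was fragile. The call was lost without either array of 0 h or of luteolin, where the difference stayed at -1.77. It was lost also without DMSO replicate 1 (-1.78), DMSO replicate 2 (-1.75) or gefitinib replicate 2 (-1.22), and with normexp background correction (-0.99). With both drugs the difference was -1.28 (adjusted p = 0.106 by limma) and not called. The mean over both probes changed by 0.71 with gefitinib, under 2-fold, so the call of BCL2 rests on the bright probe.

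BCL2L1, which encodes the survival protein BCL-XL, was lower with either drug and higher with both. Its signal was 0.62 and 0.56 at 0 h, 0.59 and 0.53 with DMSO, -0.33 and -0.46 with luteolin, -0.27 and -0.19 with gefitinib, and 1.01 and 1.97 with both. No array of these 3 drug groups overlapped DMSO or 0 h. Against DMSO the log2 change was -0.95 ± 0.28 (SE, adjusted p = 0.0365 by limma) with luteolin, -0.79 ± 0.28 (adjusted p = 0.0391) with gefitinib and 0.93 ± 0.28 (adjusted p = 0.0286) with both. All 3 passed the adjusted p and stayed under 2-fold, so none was called. With the slide as a block only the change with both passed (0.93, adjusted p = 0.0415 by limma). Those with luteolin (-0.95, adjusted p = 0.0554) and gefitinib (-0.77, adjusted p = 0.0911) did not. In the order of group means (both, 0 h, DMSO, gefitinib, luteolin) neighbours 0 h and DMSO did not differ by limma (adjusted p = 0.999). Nor did gefitinib and luteolin (adjusted p = 0.63 by limma, interval of the difference -0.47 to 0.79), though their arrays did not overlap. The spread in limma is pooled over all 5 groups, and the arrays of both drugs lay widest apart.

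The interaction, which is the change with both drugs minus the luteolin change and the gefitinib change, was 2.67 ± 0.39 for BCL2L1 (SE, n = 2 per group, adjusted p = 0.00176 by limma). Both drugs together exceeded luteolin by 1.88 ± 0.28 (3.69-fold, adjusted p = 0.0018) and gefitinib by 1.72 ± 0.28 (3.30-fold, adjusted p = 0.00149). Members called were 3 of 8 for the interaction (34.2% of all genes), 1 of 8 for both against luteolin (21.0%) and 3 of 8 for both against gefitinib (27.0%). Within slides the differences were 1.34 and 2.43 against luteolin and 1.28 against gefitinib. The 2 arrays of both drugs lay wide apart (mean 1.49, SD 0.68, against SDs of 0.04 to 0.09 in the other groups), so the change against DMSO was 1.41 (adjusted p = 0.00161 by limma, called) without replicate 1 of both drugs and 0.45 (adjusted p = 0.064) without replicate 2. Within slides it was 0.42 and 1.44.

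A second BCL2L1 probe, for NM_001191, lies 56591 bases away and was also highest with both drugs. It read -2.52 and -2.37 at 0 h, -2.09 and -2.38 with DMSO, -3.19 and -3.40 with luteolin, -2.69 and -3.33 with gefitinib, and -1.78 and -0.75 with both. Its changes against DMSO were -1.06 with luteolin (adjusted p = 0.0511 by limma), -0.78 with gefitinib (0.0814) and 0.97 with both (0.0501). None of these passed the adjusted p of 0.05. The differences from the first probe were -0.11, 0.01 and 0.04, each with an SE of 0.23, and none was called (adjusted p of 0.952 or more by limma). Its interaction was 2.81 ± 0.48 (SE, adjusted p = 0.00336 by limma). Averaged over both probes, the change with luteolin was -1.01 (adjusted p = 0.0372 by limma) and was called, as it was after quantile normalization (-1.03).

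BCL2L2, which encodes BCL-W, kept within a narrow band. Its only probe read 0.92 and 1.16 at 0 h, 1.08 and 1.13 with DMSO, 1.61 and 1.47 with luteolin, 1.57 and 1.37 with gefitinib, and 1.12 and 1.498 with both. The arrays of either single drug lay above those of DMSO, and those of both overlapped DMSO. Changes against DMSO were 0.43 (interval 0.01 to 0.85), 0.36 (-0.06 to 0.79) and 0.20 (-0.22 to 0.63), with adjusted p of 0.126, 0.127 and 0.4 by limma. The group means spanned 0.50, the narrowest range of the 8 members.

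MCL1, a survival protein that turns over quickly, was highest with both drugs. Its brightest probe gave 3.78 and 3.87 at 0 h, 4.03 and 3.92 with DMSO, 4.30 and 4.04 with luteolin, 4.05 and 3.31 with gefitinib, and 4.63 and 4.81 with both. Both arrays of the drug pair lay above all 8 others, and the gefitinib arrays lay wide apart (SD 0.53). The change with both was 0.74 ± 0.24 against DMSO (SE, adjusted p = 0.0407 by limma, under 2-fold) and 1.04 ± 0.24 against gefitinib (adjusted p = 0.00886, called). The latter was under 2-fold without gefitinib replicate 2 (0.66) or replicate 2 of both drugs (0.95), with the slide as a block (0.87), after centring on the array median (0.89) and as the mean of all probes (0.997). With only the groups compared its adjusted p was 0.0536. The other probes of MCL1 changed with both drugs by 1.02 (adjusted p = 0.0305) and 0.73 (adjusted p = 0.0998) against DMSO. Neither differed from the brightest past the call with any drug, except after quantile normalization, where the dimmest did with gefitinib (1.10). Between gefitinib and luteolin the dimmest parted from the brightest by 0.86 (adjusted p = 0.0089), under 2-fold.

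BCL2A1, a survival gene best known in blood cells, stayed under 2-fold with every drug by its brighter probe. The brighter probe read 1.62 and 1.53 at 0 h, 1.72 and 1.51 with DMSO, 1.98 and 2.09 with luteolin, 2.06 and 2.07 with gefitinib, and 1.41 and 1.40 with both. Single-drug arrays lay above DMSO and arrays of both lay below it. Changes against DMSO were 0.42 (adjusted p = 0.0738 by limma), 0.45 (adjusted p = 0.033) and -0.21 (adjusted p = 0.285), none of them 2-fold. The interaction of -1.08 ± 0.21 passed the adjusted p (0.0061 by limma). The dimmer probe, 9901 bases away, spread more between replicates (0.00 and -1.38 with gefitinib). It changed by 1.30 with gefitinib (adjusted p = 0.0641 by limma), and its interaction of -1.78 ± 0.74 did not pass (adjusted p = 0.097 by limma).

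BAK1, a pore-former that sits in the outer mitochondrial membrane of healthy cells, had the largest change against DMSO of the 8 members. Its only probe (chr6:33648563-33648622 on hg18, minus strand) read 1.04 and 1.44 at 0 h, 1.54 and 1.67 with DMSO, 1.56 and 1.45 with luteolin, -1.21 and -1.62 with gefitinib, and 1.04 and 0.67 with both. Both gefitinib arrays lay below the other 8 by a wide gap. Against DMSO the log2 change with gefitinib was -3.03 ± 0.22 (SE, n = 2 per group, adjusted p = 8.72e-05 by limma), an 8.15-fold fall. With luteolin it was -0.10 (interval -0.61 to 0.40), and with both -0.76 ± 0.22 (adjusted p = 0.0269), under 2-fold. On the slide shared by gefitinib and DMSO the difference was -2.76, and with the slide as a block the change was -2.85 (adjusted p = 0.00104 by limma).

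BAK1 was higher with both drugs than with gefitinib alone. Both drugs exceeded gefitinib by 2.27 ± 0.22 (4.83-fold, adjusted p = 0.000161 by limma), and the interaction was 2.37 ± 0.31 (SE, adjusted p = 0.00113). Gefitinib and luteolin differed by -2.92 (adjusted p = 6.43e-05), 1 of 2 members called in a comparison that called 36.6% of all genes. The other was BCL2, at 1.46 (adjusted p = 0.00268). In the order DMSO, luteolin, 0 h, both, gefitinib, the neighbours DMSO and luteolin did not differ by limma (adjusted p = 0.772). Nor did luteolin and 0 h (0.405) or 0 h and both (0.186), while both and gefitinib did. The spread in limma is pooled over all 5 groups.

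**Figure D3:**
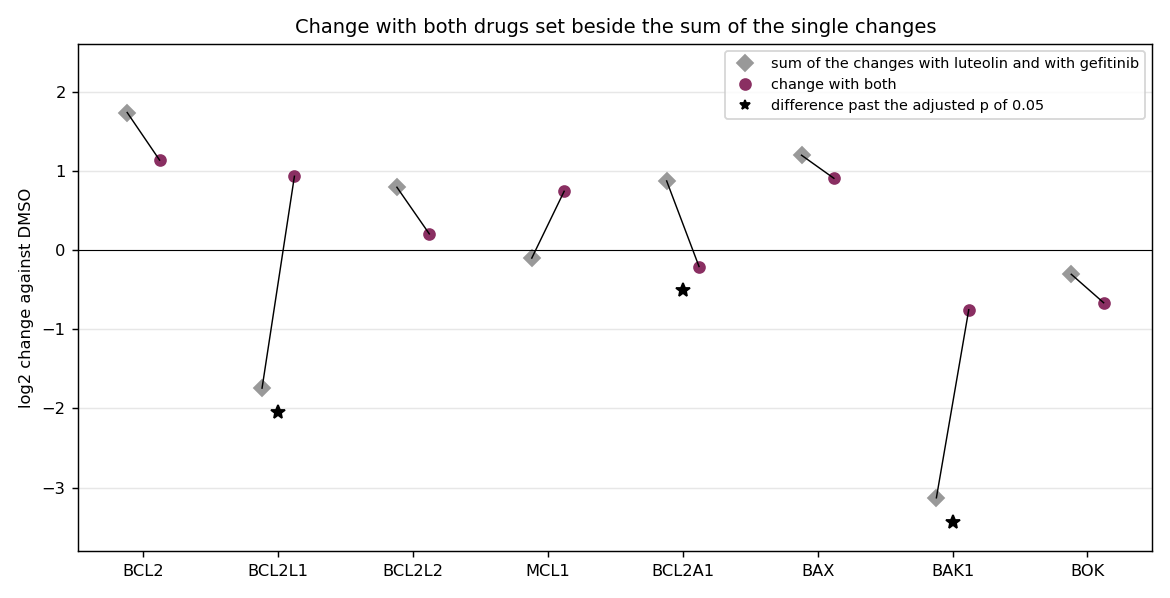
Log2 change against DMSO with both drugs (circles) beside the sum of the changes with luteolin and with gefitinib (diamonds) for each member, with stars where the difference passed the adjusted p of 0.05. BCL2L1 lies at 0.93 with both while its sum is below 0, and BAK1 lies at -0.76 while its sum is close to the -3.03 of gefitinib alone.

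BAX, the pore-former that moves from the cytosol to the mitochondrion, was measured by 3 probes that parted on the arrays of both drugs. The brightest, named for NM_138763 (chr19:54150541-54150600 on hg18, plus strand), read 1.53 and 1.73 at 0 h, 1.74 and 1.87 with DMSO, 1.88 and 2.08 with luteolin, 2.77 and 2.89 with gefitinib, and 2.32 and 3.11 with both. The 4 arrays with gefitinib in the label again lay above all others. It rose by 1.02 ± 0.25 with gefitinib (SE, adjusted p = 0.00972 by limma, called) and changed by 0.90 ± 0.25 with both (adjusted p = 0.0223, under 2-fold). Within slides the differences were 1.03 with gefitinib and 0.57 and 1.23 with both. The gefitinib call sat at the 2-fold edge and was lost without DMSO replicate 1 (0.96, adjusted p = 0.0568 by limma) or gefitinib replicate 2 (0.96), with normexp background correction (0.97) and after quantile normalization (0.69), which also lowered the median change of all genes with gefitinib from 0.22 to 0.05. Without replicate 1 of both drugs the change with both was 1.30 and was called.

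The probe for NM_138764, 6175 bases further on, was lowest with both drugs. It had 10 spots per array, with a median SD between them of 0.048. It read 1.22 and 1.18 at 0 h, 1.51 and 1.63 with DMSO, 1.52 and 1.70 with luteolin, 1.99 and 1.78 with gefitinib, and 0.57 and 0.58 with both. Arrays of both drugs were the lowest of all 10. Its change with both was -0.996 ± 0.16 against DMSO (SE, adjusted p = 0.00294 by limma), 1.99-fold and so just short of a call. The probe for NM_138765 starts only 229 bases from the brightest, and read -1.94 and -1.995 with both against -1.49 and -1.60 with DMSO, a change of -0.42 ± 0.17 (adjusted p = 0.0822).

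The probe for NM_138764 therefore changed with both drugs by -1.90 ± 0.25 relative to the brightest (SE, adjusted p = 0.00432 by limma), and that for NM_138765 by -1.33 ± 0.30 (adjusted p = 0.0258). These differences were chosen for testing after the values were seen, and were adjusted over the 7587 probe pairs of all genes. Of all pairs 8.01% were called with both drugs, 10.9% with gefitinib and 1.70% with luteolin. The first of these differences was called in every fit that left out 1 array. The second was lost without DMSO replicate 1 (adjusted p = 0.136), DMSO replicate 2 (0.0983) or replicate 2 of both drugs (0.093). For gefitinib the same differences were -0.71 and -0.52 and neither was called. The mean of the 3 probes changed by 0.61 with gefitinib and was not called.

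**Figure D4:**
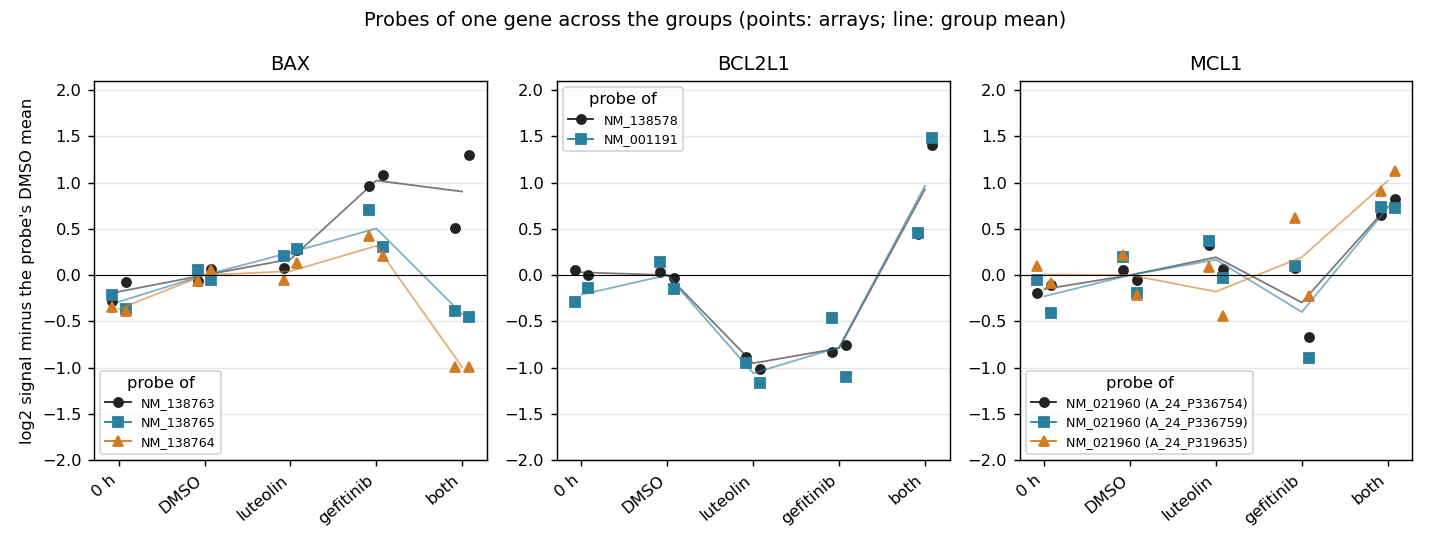
Log2 signal of each probe of BAX, BCL2L1 and MCL1 minus that probe's own DMSO mean, with points for the 2 arrays of each group and lines through the group means. The BCL2L1 probes run close together, and the dimmest MCL1 probe lies 0.49 above the brightest with gefitinib, a difference not called. On the arrays of both drugs the brightest BAX probe lies 0.90 above DMSO and that for NM_138764 lies at -0.996.

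BOK, a pore-former related to BAX and BAK1, was lowest with both drugs. The bright probe read 0.45 and 0.69 at 0 h, 0.48 and 0.63 with DMSO, 0.22 and 0.21 with luteolin, 0.46 and 0.71 with gefitinib, and -0.07 and -0.16 with both. Arrays of both drugs lay below all 8 others. The change with both was -0.67 ± 0.17 (SE, adjusted p = 0.0153 by limma), under 2-fold, and with luteolin -0.34 (interval -0.71 to 0.04) and gefitinib 0.03 (-0.35 to 0.41). The other probe, for AF089746, was well above background only at 0 h, so it has no fold between the 24 h groups.

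The genes whose course over the 10 arrays was most like that of BAK1, among 16263 genes well above background on all arrays, were DUSP6 (r = 0.995, Pearson), PPP1R10 (r = 0.99) and PROSER1 (r = 0.99). DUSP6, a phosphatase that acts on ERK, had group means of 3.27 at 0 h, 3.81 with DMSO, 3.64 with luteolin, 0.02 with gefitinib and 2.91 with both. For BCL2L1 they were POLR1F (r = 0.972), a subunit of RNA polymerase I, then ESF1 (r = 0.965) and SCAF4 (r = 0.964). These are descriptions with no test, over 10 arrays that fall into 5 groups.

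Of the 8 BH3-only genes, which encode the triggers upstream of the family, 2 were higher and 1 lower with luteolin, 3 higher and 1 lower with gefitinib, and 3 higher and 0 lower with both. Their median changes were 0.47, 0.83 and 0.73, beside 0.08, 0.22 and 0.16 for all genes. Of all genes 13.4%, 29.9% and 19.8% were called in these groups. PMAIP1, which encodes NOXA, a binder of MCL1 and A1, rose in every drug group, by 1.22, 1.195 and 1.94 (adjusted p = 0.0214, 0.0119 and 0.00308 by limma). HRK rose with gefitinib by 1.56 (adjusted p = 0.00187) and with both by 1.52 (adjusted p = 0.0034). BMF, a BH3-only gene held at the cytoskeleton, rose with luteolin from -4.31 and -3.69 to -1.44 and -0.74, by 2.91 (adjusted p = 0.00243), and was well above background on 9 of the 10 arrays. BCL2L11, which encodes BIM, fell with gefitinib by 1.82 on the log2 scale (adjusted p = 0.000184), and its change with both was 0.57. BID fell with luteolin from 2.06 and 2.16 to 0.63 and 0.83 (change -1.38, adjusted p = 0.0012).

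Of 8 divergent relatives of the family 6 could be tested. Of these 1 was higher with luteolin, 1 lower with gefitinib and 1 higher with both. Their median changes were 0.30, 0.25 and 0.39. All genes had medians of 0.08, 0.22 and 0.16, with 13.4%, 29.9% and 19.8% called. BCL2L10 rose by 1.90 with luteolin (adjusted p = 0.00128 by limma) and was at least 1.93-fold lower with gefitinib (adjusted p = 0.00244), where it was not well above background. BNIP3, a mitophagy receptor, rose by 1.43 with both (adjusted p = 0.0037).

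Downstream of the pore, 9 genes of the mitochondrial channels and released proteins had 0 higher and 1 lower with luteolin. They had 1 higher and 0 lower with gefitinib, and 1 higher and 3 lower with both. Their medians were -0.59, -0.08 and -0.49, beside 0.08, 0.22 and 0.16 for all genes. The shares of all genes called were 13.4%, 29.9% and 19.8%. VDAC1, a channel of the outer membrane, rose by 1.16 with gefitinib (adjusted p = 0.00121 by limma) and 1.02 with both (adjusted p = 0.0033). MTCH2, the receptor of the outer membrane for truncated BID, fell with both from 3.34 and 3.37 to 2.16 and 1.99 (change -1.28, adjusted p = 0.00133). VDAC3 (-1.18, adjusted p = 0.00805) and ENDOG (-1.14, adjusted p = 0.00503), a released nuclease, fell with both too. APAF1, the scaffold of the apoptosome, fell with gefitinib by 1.60 on the log2 scale (adjusted p = 0.0023), with 1 of the 2 gefitinib arrays not well above background. XIAP, a caspase inhibitor, rose by 1.11 with luteolin (adjusted p = 0.00202) and by 1.12 with both (adjusted p = 0.00194).

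Of 11 regulators of the family's proteins 10 were tested, with 0 higher and 1 lower with luteolin. There were 2 higher and 2 lower with gefitinib, and 1 higher and 1 lower with both. Their medians were 0.25, -0.26 and 0.25. For all genes the medians were 0.08, 0.22 and 0.16, and 13.4%, 29.9% and 19.8% were called. BAG1, a co-chaperone that binds BCL2, rose with gefitinib by 1.48 (adjusted p = 0.000472 by limma), and FKBP8, which anchors BCL2 at mitochondria, by 1.26 (adjusted p = 0.00437). BAG3, another co-chaperone, fell with gefitinib by 1.57 on the log2 scale (adjusted p = 0.00404), and so did BTRC, an adaptor of a ubiquitin ligase (-1.11, adjusted p = 0.00129). USP13, a deubiquitinase of MCL1, fell by 2.43 with both on the log2 scale (adjusted p = 0.00115) and by 1.61 with luteolin (adjusted p = 0.0046).

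**Figure D5:**
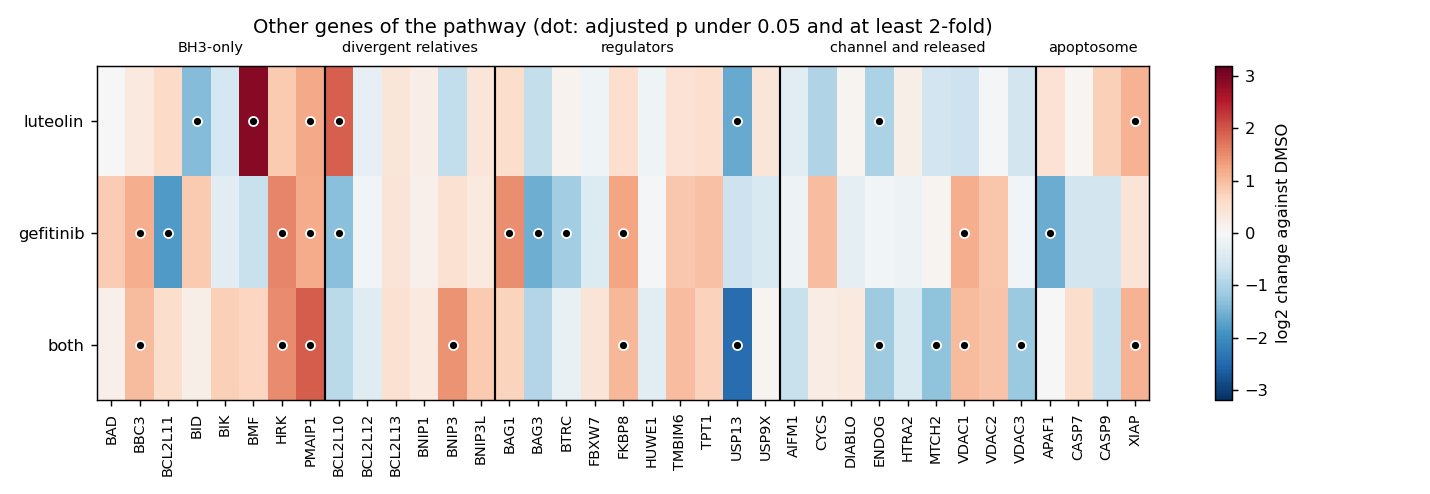
Log2 change against DMSO (color) of the other genes of the pathway in each drug group, with dots where the adjusted p was under 0.05 and the change at least 2-fold. USP13 with both drugs (-2.43) and BMF with luteolin (2.91) are the largest fall and rise among the genes shown.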

How the data were processed

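RNA of PC-3 cells was measured on 10 arrays of 41000 probes. As deposited by the authors, the scanner files hold the processed intensity of each spot on a linear scale, background-subtracted within the array by Agilent Feature Extraction (10.7.3.1 in the headers) and not normalized between arrays; the value table holds the same intensities. No normalization or threshold for these arrays is given in the sources used here. Members were the non-control spots with the gene names listed, and accessions of 23958 probes were given current symbols through a RefSeq table. The members and lists were chosen with earlier results of these data known.

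With R 4.3.3 and limma 3.58.1, outlier spots were dropped, and log2 intensities of the deposited signal were averaged per probe relative to the array's 75th percentile. Probes well above background (at least 50% of spots) on both arrays of at least 1 group were kept, 28774 in all. A model of 5 groups was fitted to all 10 arrays (5 residual and 3.36 prior degrees of freedom). Where a gene had several probes (5659 genes), the brightest on average stood for it. A fold against a group below background is a lower limit set by the lowest signal well above background. Calls needed an adjusted p under 0.05 and a 2-fold change, the interaction the adjusted p alone. Named genes were all members, up to 3 called genes per list and direction with the largest change, and the 3 most like each of the 2 members of widest range. Probe coordinates are hg18, as the scanner output gives them. The fits were tested on simulated data. Alternatives were other background corrections, scalings, filters, references, blocks, probe rules and tests, the treatments of the file names and leaving out each array. The methods' t-test is the one-sample test that the study names for changes against time zero, run here against the reference group's mean. With 2 arrays it has 1 degree of freedom and leaves out the reference group's spread, so an absence of calls by it says little. Differences between probes of a gene were added after seeing the data. Some listed genes are not reported here.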

Additional observations from a re-analysis of the deposited data

Results flagged for a closer look

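Against DMSO, the change with both drugs together was not the luteolin change plus the gefitinib change for 3 of the 8 members, where 34.2% of all genes passed the same test (interaction term in limma, n = 2 arrays per group). The difference was 2.67 for BCL2L1 (adjusted p = 0.00176 by limma), which was lower than DMSO with either drug and higher with both. It was 2.37 for BAK1 (adjusted p = 0.00113 by limma), which was low with gefitinib alone. It was -1.08 for BCL2A1 (adjusted p = 0.0061 by limma), which was slightly higher with either drug and not with both. With the treatments of the file names these values were -0.77, -2.17 and 0.24.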

How the results depend on the processing

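Over 25 alternatives, 1452 values of a member in a comparison kept their side of the threshold, 37 lost a call and 34 gained one. Of the 1452, 1392 kept their direction and 60, none of them called in either fit, changed sign. Another 13 that were called in at least 1 of the fits changed sign, all under the treatments of the file names. The members called for luteolin against DMSO, 0 of 8, were 1 after quantile normalization, with the file names, with no minimum fold and with the mean of a gene's probes. For gefitinib against DMSO, 3 became 0 with the file names, 5 with no minimum fold, 1 with the mean of probes and 0 by the methods' t-test after Benjamini-Hochberg. For both drugs against DMSO, 1 became 3 with the file names, 2 with 0 h as the reference, 6 with no minimum fold, 0 with the mean of probes and 0 by the methods' t-test with or without adjustment. For gefitinib against luteolin, 2 became 1 with the file names, and 1 and 0 by the methods' t-test without and with adjustment. For both against luteolin, 1 became 3 with the file names, 5 with no minimum fold, 2 with the mean of probes and 0 by either t-test. For both against gefitinib, 3 became 5 with no minimum fold and 0 by either t-test. The interaction's 3 became 5 with the mean of probes. No share of all genes is given under these settings, so the changed counts are not read as a result about the members. In the main limma fit many genes had an unadjusted p under 0.05. They were 7578, 12041 and 10279 of 19717 for luteolin, gefitinib and both against DMSO. The cause of these shifts was not tested, beyond what each setting changes by its construction. Leaving out 1 array gave 0 to 0 members for luteolin, 2 to 3 for gefitinib, 0 to 3 for both, 0 to 0 for DMSO against 0 h, 2 to 2 for gefitinib against luteolin, 1 to 3 for both against luteolin, 2 to 3 for both against gefitinib and 3 to 5 for the interaction, where the array left alone is assumed to vary like the other groups. With the file names in place of the labels, gefitinib against luteolin was 0.65 for BAK1, -0.996 for BCL2 and -1.88 for BCL2L1. Both against gefitinib was -2.92 for BAK1, 1.46 for BCL2 and -0.49 for MCL1, and both against luteolin was -1.72 for BCL2L1 and -1.04 for MCL1. The interaction was -2.17 for BAK1, 0.24 for BCL2A1, -0.77 for BCL2L1, 1.03 for BOK and -1.23 for MCL1, and the BAX probe for NM_138765 changed by -1.33 relative to the brightest with luteolin. With the replicate number as a block the counts were 0, 3, 1, 0, 2, 1, 3 and 3 for luteolin, gefitinib, both, DMSO against 0 h, gefitinib against luteolin, both against luteolin, both against gefitinib and the interaction, as without it. Arrays of the same number correlated weakly in their deviations (r from -0.10 to 0.29, median 0.11, over 10 pairs of groups, not above 0.1 in all of them), so the numbers were not taken to pair the arrays. A block for the scan was not run, since each slide had its own scan. Quantile normalization moved the median change of all genes with gefitinib from 0.22 to 0.05 and normexp to 0.37. The 2 arrays per group, and dim probes of BCL2 and BOK near background, limit the precision.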
